A study of Mus musculus with 4 samples.

Results

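The 9 mouse *Pax* genes, *Pax1* to *Pax9*, were followed in RNA of whole embryos. Every non-control probe that the array annotation gives to 1 of these symbols was taken, which gave 23 probes of the 56604 with a value on every array, for 9 of 24729 named genes. *Pax* genes encode transcription factors that share a paired domain for DNA binding and, in some members, a homeodomain. They are placed in subgroups by structure, *Pax1* with *Pax9*, *Pax2* with *Pax5* and *Pax8*, *Pax3* with *Pax7*, and *Pax4* with *Pax6*. Each is used in a restricted set of embryonic tissues, among them the somites, neural tube, eye, ear, kidney, thyroid and pancreas, so in RNA of a whole embryo a *Pax* signal stands for a small share of the cells.

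The study asked how loss of Dyrk2, a protein kinase, affects the developing mouse. C57BL/6 embryos of 4 groups were compared on 4 one-colour arrays of 1 slide, with 1 array per group: WT whole embryos at embryonic day 8.5 (E8.5), *Dyrk2*-/- whole embryos at E8.5, WT whole embryos at E10.5 and *Dyrk2*-/- whole embryos at E10.5. The mutant line was made with paired nicks by CRISPR/Cas9 and exists as several small deletion alleles. Which allele the hybridized embryos carried, and how many embryos gave each RNA, is not given in the sources used here. Since each group had 1 array, ratios between genotypes within a stage carry no p-value and could not be checked against a replicate.

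A value below is log2 of the processed signal of a probe minus the 75th percentile of its array, and a ratio is the difference of 2 such values. Levels of different probes are not comparable, so ratios compare a probe only with itself on other arrays. Sums over marker genes, given below, weigh the brightest probes most and are compared only between arrays. A probe was called different between 2 arrays at 1.5-fold or more. Each *Pax* probe was printed once per array, and the SD between spots, estimated from 50 repeatedly printed probes of like signal, lay between 0.08 and 0.14 for them. This gives a spot SD of 0.17 to 0.18 for a *Pax* ratio between genotypes at E8.5 and of 0.13 at E10.5, which covers the spots of an array and not the difference between embryos.

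*Dyrk2*, the targeted gene, was examined first. Its brighter probe had, at E8.5, 0.06 on the WT array and 0.76 on that of the mutant. At E10.5 it had −0.31 and 0.34. At the other probe the WT and mutant values were −0.23 and −0.20 for E8.5, then −0.28 and 0.00 for E10.5. The brighter probe was 1.62-fold higher in the mutant at E8.5 and 1.57-fold higher at E10.5, a direction kept under the 5 other scalings and backgrounds tried, though the ratio of 0.70 at E8.5 fell to 0.13 with spike-in scaling and 0.44 without scaling, and that of 0.65 at E10.5 to 0.52 without scaling, each under 1.5-fold. *Dyrk2* RNA was therefore not lower at either probe at either stage, although the other probe turned lower at E8.5 with spike-in scaling (log2 ratio −0.53) and without scaling between arrays (−0.23). Small deletions need not remove a transcript, which was not tested here, and these probes do not check the labels. The mutant arrays are called here the *Dyrk2*-/--labelled arrays, and every direction between genotypes below rests on the labels.

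More *Pax* probes, as more probes of the whole array, differed between the stages than between the genotypes, though 3 of the 4 usable *Pax6* probes did not differ more by stage. From E8.5 to E10.5, *Pax1* and *Pax7* rose and *Pax2*, *Pax5* and *Pax8* fell, while the probes of *Pax6* stayed within 1.56-fold of their E8.5 signal. In bulk RNA, fewer cells of a type and less RNA per cell cannot be told apart. Between genotypes, most *Pax* probes differed by less than 1.5-fold, though with spike-in scaling 8 of 14 reached it at E8.5. At that stage the probes disagreed in direction for 3 of the 4 genes that had several usable ones. Of the 9 genes, 8 had a probe well above background on at least 1 array, and *Pax4* had none. Of the 23 probes, 13 were well above background on all 4 arrays, 2 on some and 8 on none.

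At E8.5, 14 *Pax* probes could be compared between genotypes and 1 was called, higher on the *Dyrk2*-/--labelled array, with 0 lower. Spike-in scaling gave 0 higher and 8 lower among them, and no scaling 0 higher and 2 lower. Over all 32015 probes compared, 11.8% were called, 5.51% higher and 6.32% lower. At E10.5, 3 of 14 *Pax* probes were called, 1 higher and 2 lower, beside 7.99% of 32884 probes, 3.77% higher and 4.22% lower. One of these 3, the second probe of *Pax5*, was well above background only on the WT array. It was called from its unbounded ratio (−0.81), while the bound was at least 1.07-fold lower. The other 2 were probes of *Pax1* and *Pax6*. Of probes well above background on both E10.5 arrays, 1311 of 30877 were called.

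Between the stages, 8 of 15 *Pax* probes were called in WT, 4 higher and 4 lower at E10.5, beside 35.7% of 33491 probes, 18.3% higher and 17.4% lower. On the *Dyrk2*-/--labelled arrays, 7 of 14 were called, 3 higher and 4 lower, beside 31.4% of 32910 probes, 17.0% higher and 14.4% lower. In each genotype 6 of the called probes were well above background on both arrays. Over all probes with that filter, 8704 of 29697 were called in WT and 7323 of 29259 on the *Dyrk2*-/--labelled arrays. Among the 4 higher in WT, the second *Pax5* probe was called from its unbounded ratio (1.14), while its bound was at least 1.11-fold higher.

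Each gene was also represented by its brightest probe. By that probe 1 of 8 *Pax* genes was called at E8.5 (*Pax1*, higher), beside 9.66% of 15789 genes, 4.23% higher and 5.43% lower. At E10.5 it was again *Pax1*, now lower, beside 6.77% of 16122 genes, 2.76% higher and 4.01% lower. Between stages, 4 of 8 genes were called in WT (2 higher, 2 lower), beside 37.6% of 16455 genes, 19.3% higher and 18.3% lower. With the *Dyrk2*-/--labelled arrays it was also 4 of 8 (1 higher, 3 lower), beside 31.4% of 16210 genes, 17.1% higher and 14.3% lower. The median log2 ratio of the 8 genes between genotypes was 0.08 at E8.5, beside −0.03 over all genes, with 4 genes higher and 4 lower. This median turned to −0.48 with spike-in scaling, which moved the median of all probes from −0.01 to −0.57, and to −0.18 without scaling, which moved it to −0.26. At E10.5 the median was −0.15, beside −0.02 over all genes. In direction 1 gene was higher and 7 lower, with *Pax3* (−0.00) counted as lower. This split was 2 and 6 with quantile normalization and 4 and 4 with normexp background correction. With spike-in scaling the median was 0.01, and 4 genes were higher and 4 lower. Spike-in scaling moved the median of all probes there from 0.01 to 0.17, and no scaling moved it to −0.12. Between stages these 2 settings moved it from −0.08 to −0.14 and 0.10 in WT, and from −0.06 to 0.61 and 0.25 on the *Dyrk2*-/--labelled arrays.

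**Figure D1:**
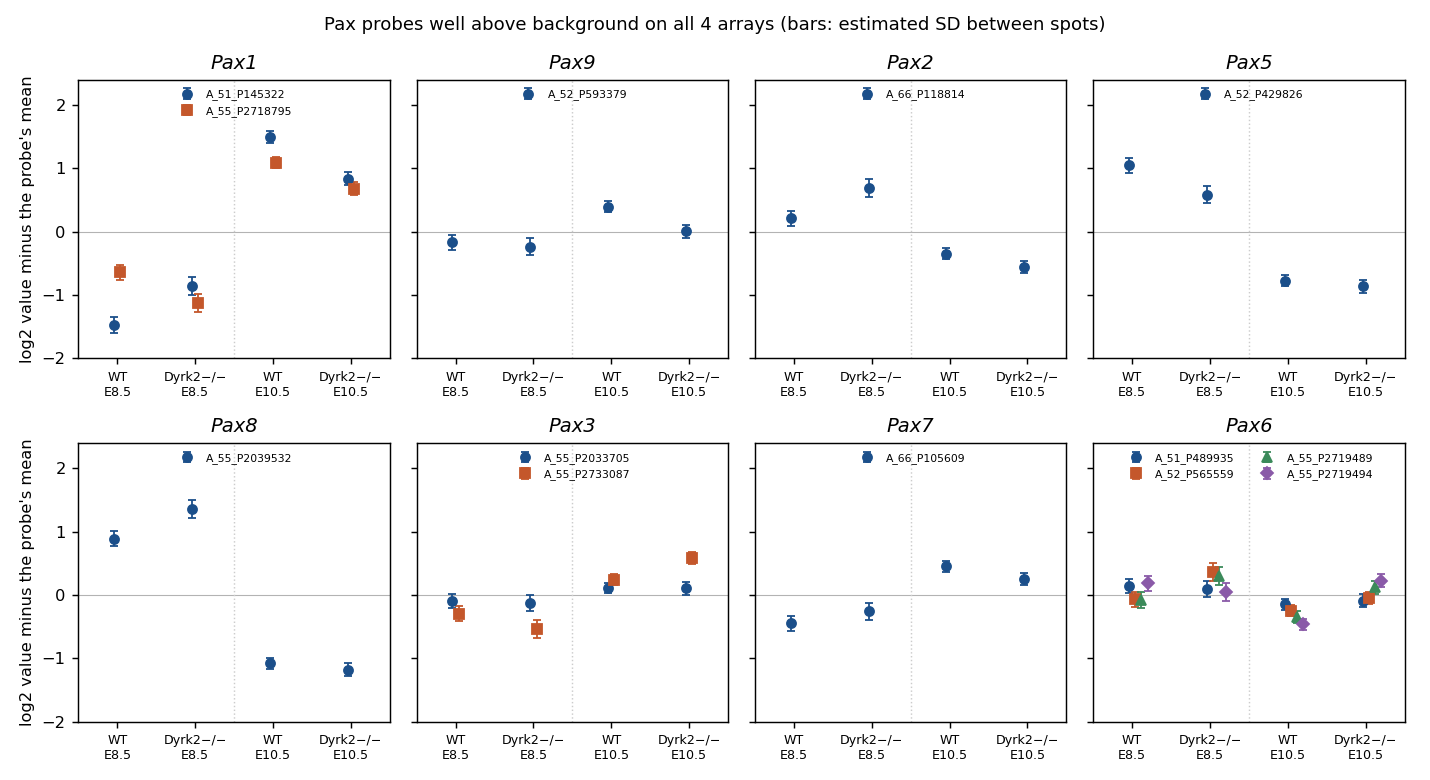
Values of the 13 *Pax* probes well above background on all 4 arrays, each as log2 value minus the mean of that probe over the 4 arrays (vertical axis), for the 4 arrays (horizontal axis, 1 array per group); bars are the estimated SD between spots. *Pax1* and *Pax7* sit higher at E10.5 than at E8.5 and *Pax2*, *Pax5* and *Pax8* lower, directions that held under every scaling tried, while the brightest *Pax6* probe varies little.

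*Pax1*, which is needed for the sclerotome and the vertebral column and is used in the pharyngeal pouches, showed the largest stage difference in WT among the brightest probes of the family. Its brightest probe (A_51_P145322, chromosome 2 of mm9, 147200673 to 147200732, plus strand) had −1.64 on the WT and −1.03 on the *Dyrk2*-/--labelled array at E8.5. At E10.5 the values were 1.33 and 0.67. Both E10.5 values lay above both E8.5 values, with the WT arrays at the 2 ends of the order. The signal was 7.84-fold higher at E10.5 in WT and 3.25-fold higher on the *Dyrk2*-/--labelled arrays. Between genotypes it was 1.53-fold higher on the *Dyrk2*-/--labelled array at E8.5 and 1.57-fold lower at E10.5. The E8.5 ratio of 0.62 lay between 0.05 (spike-in scaling) and 0.57 under the 5 other scalings and backgrounds, below the 1.5-fold threshold in each, while the E10.5 ratio of −0.65 lay between −0.79 and −0.49.

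The second *Pax1* probe (A_55_P2718795, 147218928 to 147218987) is placed by the annotation on another transcript of the gene. It had −3.85 on the WT and −4.34 on the *Dyrk2*-/--labelled array at E8.5. For E10.5 these were −2.12 and −2.53. It too was higher at E10.5, 3.31-fold in WT and 3.5-fold on the *Dyrk2*-/--labelled arrays. With normexp background correction it was higher by 0.79 and 0.54 on the log2 scale, the latter under 1.5-fold. At E8.5, however, it was 1.40-fold lower on the *Dyrk2*-/--labelled array, so the 2 probes disagreed in direction there by 1.11 on the log2 scale. With normexp background correction this second ratio was 0.06, and the disagreement in direction was gone. At E10.5 both probes were lower, the second by 1.33-fold. The first 30 bases of each probe are given as sequence only, and their part in these values was not tested.
A_51_P145322: tcaattgttgtagtcataaacatattactg
A_55_P2718795: caggctgttgagatttcttggtgtgctggt

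*Pax9*, the close relative of *Pax1* that is needed for teeth, palate and pharyngeal pouch organs, moved less. Its brightest probe (A_52_P593379, chromosome 12, 57811169 to 57811228) had −0.98 in WT and −1.05 on the *Dyrk2*-/--labelled array at E8.5. At E10.5 it had −0.42 and −0.81. The WT E10.5 array was highest, and the 2 E8.5 values differed by less than their spot SD. Their log2 ratio was −0.63 with spike-in scaling, past 1.5-fold. The signal was 1.48-fold higher at E10.5 in WT and 1.18-fold higher on the *Dyrk2*-/--labelled arrays. At E10.5 it was 1.31-fold lower on the *Dyrk2*-/--labelled array, the same direction as both *Pax1* probes, and this direction held under all 5 scalings for the 3 probes. The other *Pax9* probe gave no usable signal (not well above background, 4 of 4 arrays).

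Among 16 other genes of the sclerotome and pharyngeal pouches, 14 could be compared between genotypes at E8.5, with 1 called higher and 1 lower, beside 9.66% of all genes called, and a median log2 ratio of 0.15 (12 higher and 2 lower in direction, beside 45.2% of all genes higher). This median is smaller than the shift that spike-in scaling gives all probes at E8.5. *Meox2*, a somite homeobox gene, had −1.18 on the WT and −0.15 on the *Dyrk2*-/--labelled array at E8.5, 2.04-fold higher on the latter. *Sox9*, which drives cartilage formation, had 0.60 and −0.11 there, 1.65-fold lower. At E10.5 0 of 15 were called, beside 6.77% of all genes, and the median was −0.12 (2 higher and 13 lower in direction, beside 46.2% of all genes higher). Between stages 8 of 15 were called higher and 2 lower in WT, beside 37.6% of all genes called in either direction, and 5 were called higher and 4 lower on the *Dyrk2*-/--labelled arrays, beside 31.4%. The 5 markers of somite and heart mesoderm were well above background on every array, and their summed level, as a multiple of the 75th percentile, was 93.4 in WT and 95.6 on the *Dyrk2*-/--labelled array at E8.5, against 44.5 and 46.6 at E10.5, with the heart gene *Myl7* brightest throughout.

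*Pax2*, which acts in the optic stalk, ear, kidney and midbrain-hindbrain boundary, had 1 usable probe of 4 (A_66_P118814, chromosome 19, 44911445 to 44911504). Its values were −0.81 in WT and −0.33 on the *Dyrk2*-/--labelled array at E8.5. At E10.5 they were −1.37 and −1.58. Both E8.5 values lay above both E10.5 values. The signal was 1.46-fold lower at E10.5 in WT and 2.38-fold lower on the *Dyrk2*-/--labelled arrays. The latter was −0.58 on the log2 scale with spike-in scaling, under 1.5-fold. The genotype ratio was 1.40-fold higher for E8.5, 1.16-fold lower for E10.5, and the E8.5 direction turned with spike-in scaling (−0.08).

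*Pax5*, known for the midbrain-hindbrain boundary and for B cell identity, fell between the stages. Its brightest probe (A_52_P429826, chromosome 4, 44537936 to 44537995, minus strand) had −0.39 in WT and −0.85 on the *Dyrk2*-/--labelled array at E8.5. At E10.5 it had −2.21 and −2.30, which differed by less than their spot SD. The signal was 3.53-fold lower at E10.5 in WT and 2.73-fold lower on the *Dyrk2*-/--labelled arrays. At E8.5 it was 1.38-fold lower on the *Dyrk2*-/--labelled array, a direction kept under all 5 scalings, with log2 ratios from −1.02 to −0.32. At E10.5 it was 1.06-fold lower, and turned slightly higher with spike-in scaling (0.07) and with normexp background correction (0.04).

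The second *Pax5* probe (A_66_P128859, 44692322 to 44692381) was well above background only on the WT E10.5 array, where it had −4.67. It was at least 1.11-fold higher there than on the WT E8.5 array, a direction opposite to the brightest probe. This bound lies below 1.5-fold, and without it the log2 ratio was 1.14.

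*Pax8*, a regulator of the thyroid and, with *Pax2*, of the kidney and ear, fell most of the family by the brightest probes, though with normexp background correction the fall in WT was larger for *Pax5* (−1.34) than for *Pax8* (−1.21). Its brightest probe (A_55_P2039532, chromosome 2, 24276147 to 24276206, minus strand) had −1.22 in WT and −0.75 on the *Dyrk2*-/--labelled array at E8.5. At E10.5 it had −3.19 and −3.29, again within their spot SD of each other. The signal was 3.91-fold lower at E10.5 in WT and 5.81-fold lower on the *Dyrk2*-/--labelled arrays. Between genotypes it was 1.38-fold higher at E8.5, which turned with spike-in scaling (−0.10). At E10.5 it was 1.08-fold lower, which turned with spike-in scaling (0.06) and with normexp background correction (0.01).

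A second *Pax8* probe (A_55_P2716701, 24327524 to 24327583) had −3.48 in WT and −3.76 on the *Dyrk2*-/--labelled array at E8.5 and was not well above background at E10.5. It was at least 2.36-fold lower at E10.5 in WT and at least 2.02-fold lower on the *Dyrk2*-/--labelled arrays. At E8.5 it was 1.21-fold lower on the *Dyrk2*-/--labelled array, against the direction of the brightest probe, and it turned higher with normexp background correction (0.03). The 2 *Pax8* probes thus shared the stage difference and not the genotype difference. The last *Pax8* probe was below this level on all 4 arrays.

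Of 18 genes of the intermediate mesoderm, kidney, ear and midbrain-hindbrain boundary, 17 were compared at each stage. At E8.5 1 was called higher and 0 lower, beside 9.66% of all genes called. It was *Gdnf*, a growth factor of the kidney and enteric nervous system, with −2.28 in WT and −1.69 on the *Dyrk2*-/--labelled array, 1.5-fold higher. At E10.5 1 was called higher and 2 lower, beside 6.77% of all genes called. *Dlx5*, a homeobox gene of the ear and branchial arches, was 1.5-fold higher there (−1.88 in WT and −1.30). *Lhx1*, an early gene of the intermediate mesoderm, was 1.78-fold lower (0.91 in WT and 0.08). Between stages 4 of the 17 were called higher and 7 lower in WT (median log2 ratio −0.43, beside −0.09 over all genes, of which 37.6% were called) and 3 higher and 8 lower on the *Dyrk2*-/--labelled arrays (median −0.45, beside −0.07, with 31.4% called).

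Most of the thyroid and B cell genes were not well above background. The counts called between genotypes below stand beside 9.66% of all genes at E8.5 and 6.77% at E10.5. Of 7 thyroid genes 2 were compared at E8.5, with 1 called lower, and 3 at E10.5, with 2 called lower. *Hhex*, a homeobox gene of the foregut and of blood and endothelial precursors, had 0.32 in WT and −0.54 on the *Dyrk2*-/--labelled array at E8.5, 1.82-fold lower. *Nkx2-1*, needed for thyroid, lung and ventral forebrain, had −1.63 in WT and −2.82 on the *Dyrk2*-/--labelled array at E10.5, 2.28-fold lower. Of 8 B cell genes 4 were compared at E8.5, with 2 called lower, and 3 at E10.5, with 0 called. *Vpreb1*, part of the surrogate light chain, had −2.0 in WT and −2.64 on the *Dyrk2*-/--labelled array at E8.5, 1.56-fold lower.

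*Pax3*, a gene of the dorsal neural tube, dermomyotome and neural crest, had about the same signal at its brightest probe in both genotypes with the 75th percentile scaling. This probe (A_55_P2033705, chromosome 1, 78099294 to 78099353, minus strand) had 1.44 in WT and 1.41 on the *Dyrk2*-/--labelled array at E8.5. At E10.5 both arrays had 1.64. Within each stage the values differed by less than their spot SD. The signal was 1.15-fold higher at E10.5 in WT and 1.17-fold higher on the *Dyrk2*-/--labelled arrays. Between genotypes the ratio was 1.02-fold at E8.5 and 1.0-fold at E10.5, and at E10.5 its direction depended on the scaling. With spike-in scaling the E8.5 log2 ratio was −0.59, past 1.5-fold.

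The other *Pax3* probe (A_55_P2733087, 78181199 to 78181258), placed by the annotation on another transcript, had −2.21 in WT and −2.45 on the *Dyrk2*-/--labelled array at E8.5. At E10.5 it had −1.67 and −1.33. It was 1.19-fold lower on the *Dyrk2*-/--labelled array at E8.5 and 1.27-fold higher at E10.5, directions that held under all 5 scalings. Its stage difference was 1.45-fold in WT and 2.18-fold on the *Dyrk2*-/--labelled arrays, both larger than at the brightest probe. The last 30 bases of both probes are shown because the annotation places the probes on different transcripts. The brightest probe ends just after an AATAAA hexamer (capitals), the common polyadenylation signal, which 9.77% of all 60-base probes hold on the printed strand and 1 of the 23 *Pax* probes does.
A_55_P2033705: gaatcttctcagaaacaaaacAATAAAaaa
A_55_P2733087: atatttctgctgtataaacgactacttctc

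*Pax7*, which marks dorsal neural tube, neural crest and muscle progenitors, had a single probe (A_66_P105609, chromosome 4, 139294031 to 139294090, minus strand). Its values were −0.56 in WT and −0.37 on the *Dyrk2*-/--labelled array at E8.5. At E10.5 they were 0.34 and 0.14. Both E10.5 values lay above both E8.5 values. The signal was 1.86-fold higher at E10.5 in WT and 1.42-fold higher on the *Dyrk2*-/--labelled arrays. Between genotypes it was 1.14-fold higher at E8.5, which turned with spike-in scaling (−0.37) and without scaling (−0.07), and 1.15-fold lower at E10.5.

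Of 19 genes of the dermomyotome, muscle and neural crest, 16 could be compared at the earlier stage and 18 at the later. At E8.5 3 were called higher and 0 lower, beside 9.66% of all genes called. In direction 8 genes of this list were higher and 8 lower there, with a median log2 ratio of 0.04. *Sox10*, a neural crest regulator, was 1.64-fold higher (1.22 in WT and 1.93). *Dmrt2*, a gene of the dermomyotome, was 1.63-fold higher (−1.55 and −0.85). *Lbx1*, which marks migrating muscle precursors and dorsal interneurons, was 1.59-fold higher (−3.68 and −3.02). At E10.5 0 were called higher and 2 lower, beside 6.77% of all genes called. In direction 1 was higher and 17 lower, beside 46.2% of all genes higher, with a median log2 ratio of −0.2. *Myod1*, the muscle determination factor, was 2.51-fold lower (−3.42 in WT and −4.75). The latter value lies at the detection limit, since the lowest value well above background on that array was −4.77. *Lbx1* was 1.59-fold lower there (−0.01 and −0.68), opposite to its direction at E8.5, and the difference between the stages was not tested.

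*Pax4*, known for pancreatic beta and delta cells, had 1 probe, which was on none of the 4 arrays well above background, so it has no fold. *Pax6*, a regulator of the eye, forebrain, neural tube and pancreas, had 6 probes, of which 4 were well above background on all 4 arrays. Its brightest probe (A_51_P489935, chromosome 2, 105537277 to 105537336) had 1.33 in WT and 1.28 on the *Dyrk2*-/--labelled array at E8.5. At E10.5 it had 1.04 and 1.1. These genotype ratios were 1.04-fold lower at E8.5 and 1.04-fold higher at E10.5, both within the spot SD, and the second turned lower without scaling between arrays (−0.08). With spike-in scaling the E8.5 ratio was −0.62 on the log2 scale, past 1.5-fold.

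The next *Pax6* probe (A_52_P565559), which spans a splice junction, had −0.60 in WT and −0.17 on the *Dyrk2*-/--labelled array at E8.5. For E10.5 these were −0.78 and −0.58. It was 1.35-fold higher on the *Dyrk2*-/--labelled array at E8.5 and 1.14-fold higher at E10.5. Another (A_55_P2719489), also across a junction, had −3.15 and −2.77 for E8.5 (1.30-fold higher) and −3.42 and −2.95 for E10.5 (1.39-fold higher). The 2 junction probes thus gave the same direction, which turned lower at E8.5 with spike-in scaling for both (−0.13 and −0.19). The last (A_55_P2719494, 105524641 to 105524700) is placed by the annotation on another transcript of the gene. On the genome it lies between the parts of A_55_P2719489 and outside them, so it may not follow the same RNA. Its signal was low, from 24.8 to 36.5 before scaling. The probe had −3.51 and −3.65 for E8.5 and −4.16 and −3.47 for E10.5. It was 1.1-fold lower on the *Dyrk2*-/--labelled array at E8.5, which turned with normexp background correction (0.13), and 1.61-fold higher at E10.5, which came to 0.21 on the log2 scale with that correction. At E10.5 all 4 probes were higher on the *Dyrk2*-/--labelled array, by 0.06 to 0.69 on the log2 scale. This count fell to 3 of 4 without scaling between arrays. Between stages the brightest probe was 1.22-fold lower at E10.5 in WT and 1.13-fold lower on the *Dyrk2*-/--labelled arrays, and the latter turned higher with spike-in scaling (0.49) and without scaling (0.13).

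A pair of *Pax6* probes crosses a splice junction in the paired domain. *Pax6* has an alternative exon that, when included, interrupts the paired domain and changes its DNA binding. Both probes begin in the same exon, whose last base in mm9 is position 105524115 of chromosome 2 for both, and continue in different exons. Probe A_52_P469306 has 18 bases before the junction and 42 after it, and ends at 105524949. These 42 bases were taken for the alternative exon from their sequence and the junction, without an annotation file to check it. Probe A_55_P2719489 has 10 bases before the junction and 50 after it, in the following exon, and ends at 105525093. On none of the 4 arrays was the first probe well above background, and the second was on all 4. The 50 bases of the second also lie in transcripts that include the alternative exon, and probes bind with different strength, so this gives neither a ratio of the forms nor a measure of the form without that exon. In the sequences, capitals mark the 10 bases that both probes hold before the junction.
A_52_P469306: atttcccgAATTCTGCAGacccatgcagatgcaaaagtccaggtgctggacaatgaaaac
A_55_P2719489: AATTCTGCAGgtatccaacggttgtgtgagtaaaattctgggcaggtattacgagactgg

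**Figure D2:**
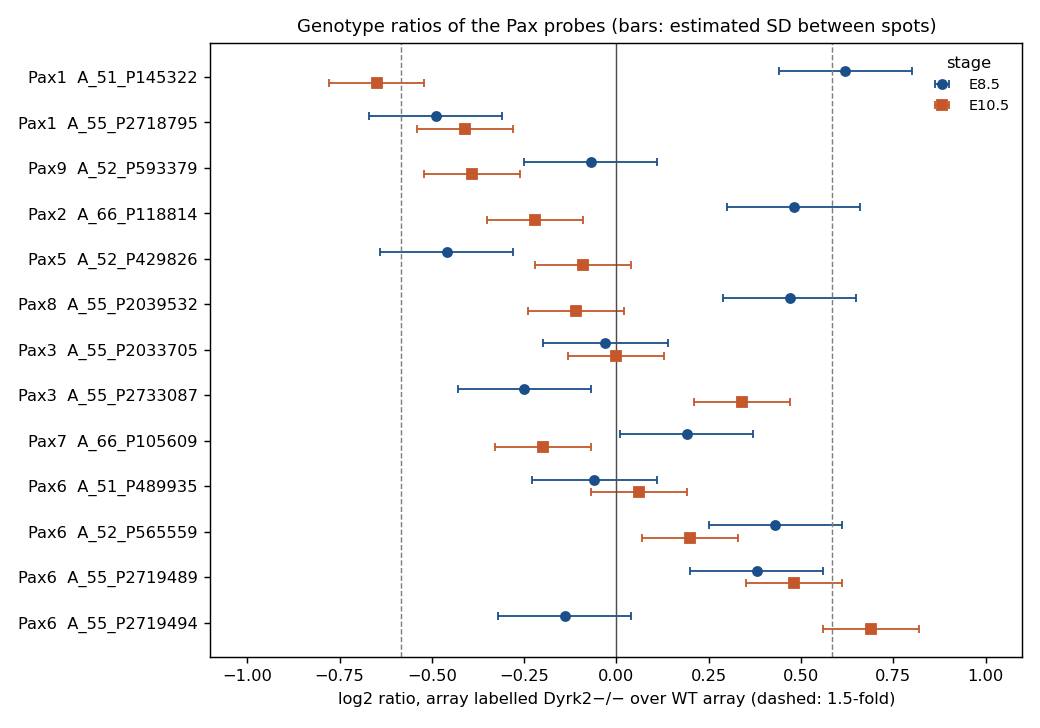
Log2 ratios (horizontal axis) of the *Dyrk2*-/--labelled array over the WT array at E8.5 (circles) and E10.5 (squares) for the 13 *Pax* probes well above background on all 4 arrays, with 1 array per group; bars are the estimated SD between spots and dashed lines mark 1.5-fold. Only the brightest *Pax1* probe (0.62 and −0.65) and 1 *Pax6* probe (0.69) pass 1.5-fold here, and the *Pax1* value at E8.5 passes it under none of the 5 other scalings and backgrounds.

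Of 17 genes of the eye and neural tube, 15 could be compared at the earlier stage and all 17 at the later. At E8.5 4 were called higher and 1 lower, beside 9.66% of all genes called. In direction 7 were higher and 8 lower, with a median log2 ratio of −0.01. *Dbx1*, *Neurog2* and *Olig2*, which pattern the neural tube, were 1.90-fold (−1.55 in WT and −0.62), 1.81-fold (−2.76 and −1.90) and 1.75-fold higher (−4.01 and −3.20). At E10.5 0 were called higher and 2 lower, beside 6.77% of all genes called. In direction 3 were higher and 14 lower, with a median log2 ratio of −0.18. *Nkx2-2*, a ventral neural tube gene, was 1.98-fold lower (−1.98 in WT and −2.96). *Eomes*, which acts in the forebrain and early mesendoderm, was 1.75-fold lower (−2.68 and −3.49). Between stages 10 of 16 were called higher and 2 lower in WT, with a median log2 ratio of 1.63, beside 37.6% of all genes called. On the *Dyrk2*-/--labelled arrays 10 of 17 were called higher and 3 lower, with a median of 0.69, beside 31.4%. These counts include genes below background at 1 stage, called from unbounded ratios, and 1 of the latter 10 has a bound of at least 1.24-fold. *Pax6* itself was not called at its brightest probe. The 4 markers of neural tissue were well above background on every array, with summed levels of 17.3 in WT and 17.7 on the *Dyrk2*-/--labelled array at E8.5 (*Sox2* brightest) and of 51.3 and 40.6 at E10.5 (*Nes* brightest).

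Of 9 pancreatic endocrine genes, 6 were compared between genotypes at each stage. *Gcg*, the glucagon gene, was the 1 called at E8.5, beside 9.66% of all genes. It was 1.66-fold higher on the *Dyrk2*-/--labelled array (−3.89 in WT and −3.16), while in direction 2 of the list were higher and 4 lower. At E10.5 0 were called, beside 6.77% of all genes. All 9 genes for cofactors that bind *Pax* proteins or act with them were compared at both stages. Beside these same shares of all genes, 0 were called between genotypes, with median log2 ratios of −0.06 at E8.5 and −0.08 at E10.5.

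Over all 103 genes of these lists around the *Pax* family, 10 of 83 compared were called higher and 5 lower at E8.5, and 1 of 88 was called higher and 8 lower at E10.5. The shares called, 18.1% and 10.2%, stand beside 9.66% and 6.77% of all genes. Medians were 0.02 and −0.18. Of the genes named above, 12 were called for E8.5 and 7 for E10.5, and all 19 ratios kept their direction under the 5 other scalings and backgrounds. Such a result is favoured by the choice, since they were named for large ratios on these same spots. With spike-in scaling, however, 3 of the 12 still passed 1.5-fold in the same direction, and with normexp background correction 5 of the 12 and 2 of the 7.

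Both stages were then tested together with limma (genotype and embryonic day as terms, 1 residual degree of freedom, adjusted over 32289 probes). By embryonic day 8 of 14 *Pax* probes passed an adjusted p of 0.05, 4 higher and 4 lower at E10.5, beside 35.3% of all probes, 15.7% higher and 19.6% lower. *Pax1* rose by 2.34 on the log2 scale (SE 0.25, limma adjusted p = 0.000152) at its brightest probe and by 1.77 (SE 0.25, limma adjusted p = 0.000708) at the other. *Pax7* rose by 0.70 (SE 0.15, limma adjusted p = 0.00711), and the dimmer *Pax3* probe rose by 0.83 (SE 0.20, limma adjusted p = 0.0119). *Pax8* fell by 2.25 (SE 0.21, limma adjusted p = 5.98e-05) at its brightest probe. The second *Pax8* probe is among the 8, but it was not well above background at E10.5, so its difference is known only by the bounds given above. *Pax5* fell by 1.64 (SE 0.17, limma adjusted p = 0.000137) and *Pax2* by 0.90 (SE 0.19, limma adjusted p = 0.0064). Each of these 8 moved in the same direction in both genotypes. This is no separate support, since a stage ratio that differs between the genotypes adds to the error of the fit. *Pax9* (0.41 higher, limma adjusted p = 0.0743), the brightest *Pax3* probe (0.21 higher, limma adjusted p = 0.221) and the *Pax6* probes did not pass. The number that passed was 4 with spike-in scaling and 5 without the intensity trend.

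By genotype over both stages 0 of 14 *Pax* probes passed limma's adjusted p of 0.05, beside 0.0186% of all probes (6 of 32289). At an unadjusted p under 0.05 it was again 0 of 14, beside 1592 of all probes (4.93%), and 0 passed the adjusted p under every other setting. With these terms, what remains as error is how far the genotype ratio changes from E8.5 to E10.5, so a gene such as *Pax1*, whose brightest probe had opposite ratios at the stages, adds to its own error. Its genotype estimate was −0.02 (SE 0.25).

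The RNA samples also differed in genes of other cell types, and the part of these in the *Pax* values was not tested. The 9 markers of primitive erythroid cells had a summed level of 13.5 on the WT array at E8.5 (*Hbb-bh1* brightest) and of 264 on the *Dyrk2*-/--labelled array. At E10.5 it was 819 and 987, with *Hbb-y* brightest. The 9 markers of yolk sac endoderm summed to 52.6 and 33.9 at E8.5 (*Rbp4* brightest) and to 21.1 and 17.5 at E10.5 (*Afp* brightest, *Apoa4* not well above background on either array and *Amn* not on the *Dyrk2*-/--labelled array). Single genes of this list differed more between stages than the sum, with 8 of 9 called lower at E10.5 in each genotype (median log2 ratio −4.37 in WT and −4.13). Of 8 trophoblast markers 7 were on the array, and they summed to 16.0 and 11.1 at E8.5 and to 16.2 and 19.3 at E10.5, with *Gcm1* brightest and *Tpbpa* and *Cts7* not well above background on the 4 arrays, *Prl3d1* on 3 and *Prl8a2* on the E10.5 pair. The brightest gene carried this sum, and single trophoblast genes differed from it. Of 5 compared between genotypes at E8.5, 3 were higher and 2 lower on the *Dyrk2*-/--labelled array (median log2 ratio 0.46), and of 4 compared between stages in WT 3 were called lower (median −1.83). The 5 markers of endoderm and epithelium summed to 55.3 and 48.2 at E8.5 and to 12.3 and 13.7 at E10.5, with *Krt8* brightest. The 5 sex chromosome transcripts summed to 4.67 and 4.24 at E8.5 and to 3.52 and 0.816 at E10.5. *Eif2s3y* was the brightest on 3 arrays, where *Xist* had no usable signal. On the E10.5 *Dyrk2*-/--labelled array *Xist* was the brightest and all 4 Y-linked genes were not well above background. The E10.5 pair thus also differed in these, and so did the *Dyrk2*-/--labelled arrays between stages. The limma fit uses this array too.

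The 23 *Pax* probes did not share long runs of sequence. Over 225 pairs of probes for different *Pax* genes, the longest shared run was 10 bases, against 60 bases for a whole probe. The 13 with usable signal on every array had a median GC content of 36.7%, and the 8 well above background on none had 50.9%. Over all probes the corresponding medians were 43.3% and 41.7%. The 13 began at a median position of 2112 in their annotated transcript and the 8 at 890.5.

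For each *Pax* gene usable on all 4 arrays, the 2 genes with the most similar pattern over the 4 arrays were taken among 14578, by the root-mean-square difference of their mean-centred log2 values. For *Pax1* these were *Lrrn3* (0.0616) and *Spock2* (0.0733), and for *Pax9* *Peg3os* (0.0355) and *Fitm1* (0.0392). For *Pax2* they were *Ddit4* (0.031) and *Tle6* (0.0561), for *Pax5* *Lpar3* (0.0272) and *Fgfr4* (0.0467), and for *Pax8* *Ppp1r3g* (0.0428) and *Ciart* (0.0619). For *Pax3* they were *Gm10509* (0.0104) and *Fam149a* (0.0113), for *Pax7* *Letm2* (0.00953) and *Fzd3* (0.0137), and for *Pax6* *Zfp446* (0.00578) and *AF366264* (0.00691). With 4 arrays and this many genes, close patterns are found for any gene, and flat ones such as *Pax6* are matched most closely.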

How the data were processed

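Cy3-labelled RNA was hybridized to Agilent SurePrint G3 mouse arrays. The authors deposited the scanner output, with a processed intensity (linear, local background removed, arrays not brought to a common scale), and a file of linear intensities on a shared distribution. The submitters' processing notes name Feature Extraction 9.5.1.1, the file headers 10.7.1.1. From the scanner output, log2 intensities of the spots that print a probe were averaged, outlier spots left out, and expressed relative to the 75th percentile of their array. No spot was saturated. A pair of arrays was compared at probes well above background on either. If 1 array was below background, the ratio was bounded with that array's lowest usable value, or with the probe's own value if higher. Names came from RefSeq accessions (GRCm38.p6, 32993 probes matched), coordinates from the mm9 array annotation. The *Pax* genes and the lists were chosen with earlier results of these data known.

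The genes named are the *Pax* genes, *Dyrk2*, list genes called on probes well above background on both arrays (at most 3 per list, stage and direction) and the 2 nearest patterns per *Pax* gene. limma 3.58.1 (R 4.3.3, data.table version 1.17.8) was fitted to probes with usable signal on 2 or more arrays, with an intensity trend and Benjamini-Hochberg adjustment. On simulated data with 200 of 32289 probes changed 2-fold by genotype, limma recovered 200 with 6 others. The simulated noise had the size of the SD between spots. It held no difference between embryos and no genotype ratio that changes between stages. This checks the code and does not show what limma could detect in the real arrays. Alternatives were quantile normalization, spike-in scaling (7 of 10 control probes usable), no scaling, normexp background correction (offset 50), values as deposited, other filters, a 2-fold threshold, a Z-score over 2 in size within 500 probes of like signal, the mean over probes, and limma without the trend. Python 3.11.15, numpy 2.4.6, pandas 2.3.3 and matplotlib 3.10.9 were used. Which markers of 1 list were below background is not reported here.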

Additional observations from a re-analysis of the deposited data

Results flagged for a closer look

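A set of 4 *Pax* probes had genotype ratios of opposite direction at E8.5 and E10.5 that lay at least 1.5-fold apart, and these differences between the stages were not tested, since each rests on 4 single spots. For *Pax1* (A_51_P145322) the log2 ratio at E10.5 minus that at E8.5 was −1.27, and with spike-in scaling −0.54. The second *Pax1* probe had 0.08, and 0.80 with spike-in scaling. For *Pax2* (A_66_P118814) the difference was −0.70, and 0.02 with spike-in scaling. For the dimmer *Pax3* probe (A_55_P2733087) it was 0.59, 1.31 with spike-in scaling and 0.30 with normexp background correction, while the brightest *Pax3* probe had 0.02, and 0.75 with spike-in scaling. For 1 dim *Pax6* probe (A_55_P2719494), annotated to another transcript, it was 0.82, 1.55 with spike-in scaling and 0.08 with normexp background correction. The other 3 *Pax6* probes lay between −0.24 and 0.11, and between 0.49 and 0.84 with spike-in scaling.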

How the results depend on the processing

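Under the 5 other scalings and backgrounds, 12 of 13 *Pax* probes kept the direction of their stage ratio in WT and 9 of 13 on the *Dyrk2*-/--labelled arrays. At their brightest probes *Pax1*, *Pax7* and *Pax9* were higher and *Pax2*, *Pax5* and *Pax8* lower at E10.5 in both genotypes under those 5. With the mean over the measured probes of a gene these directions also held, and *Pax5* in WT was −0.34. Between genotypes, 6 of 14 probes at E8.5 and 9 of 13 at E10.5 kept their direction under those 5. The number of *Pax* probes called at E8.5, which was 1, became 0 with quantile normalization, normexp background correction, the deposited table, a 2-fold threshold and the added Z-score, 4 without a filter, 2 without scaling (0 higher, 2 lower) and 8 with spike-in scaling (0 higher, 8 lower). Spike-in scaling also raised the count over all probes from 3786 to 15650. At E10.5 the 3 called became 7 without a filter, 1 with normexp background correction or the Z-score and 0 at 2-fold, and the split was 2 higher and 1 lower with spike-in scaling and 0 higher and 2 lower without scaling. Between stages the Z-score left 2 of 8 in WT and 2 of 7 on the *Dyrk2*-/--labelled arrays, where no filter gave 12. Without scaling the WT split was 6 higher and 3 lower, and with spike-in scaling that of the *Dyrk2*-/--labelled arrays was 7 higher and 3 lower. The median over the *Pax* genes moved from 0.08 to −0.48 (spike-in scaling) and −0.18 (no scaling) at E8.5, and from −0.15 to 0.01 and −0.29 at E10.5. The 8 probes that limma passed by stage became 4 with spike-in scaling and 5 without the intensity trend, and the 0 by genotype stayed 0 under every alternative. The causes were not tested. Single spots, 1 array per group and, for the dimmer probes, signal little above background limit these values.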

Other observations

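Transcripts named after *Pax6* were mostly below background. Of 3 probes for *Pax6os1*, the antisense transcript next to *Pax6*, 1 gave usable signal, on the E10.5 *Dyrk2*-/--labelled array, alone, at −4.64, which is at least 1.05-fold above the WT E10.5 array. The probe for *Paupar*, a long noncoding RNA upstream of *Pax6*, gave signal not well above background throughout.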
